A study of Mus musculus with 2 samples.

Results

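Acyl-CoA thioesterases are enzymes that split a fatty acyl-CoA into a free fatty acid and coenzyme A. The genes examined were the 10 mouse genes Acot1, Acot2, Acot3, Acot4, Acot5, Acot7, Acot8, Acot9, Acot11 and Acot12, picked out by gene name, with earlier results of these data known. The spot files name 4 of the 10 genes under the symbols sought, all of them older ones (Cte1 for Acot1, Mte1 for Acot2, Bach for Acot7 and Pte1 for Acot8). The other 6 carry other names there and were matched through their accessions or other names in a RefSeq gene table. In all, 11 probes for 10 genes were found among the 40979 probes in use, and Acot4 had 2 of them. Every one of the 11 gave a signal well above background in either genotype and either dye, and none was saturated.

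RNA came from interscapular brown adipose tissue of double-knockout mice (DKO), which carry RORa-/- and a second deletion in the same family of nuclear receptors, and of wild-type mice (WT). Both groups were C57BL/6 males, 4 per genotype, 2 to 3 months old, and tissue was taken near circadian time 20. One array carried DKO RNA in the red dye Cy5 and WT RNA in the green dye Cy3, and a further array carried the reverse. The sources used here do not say whether the mice of a genotype were pooled, so the 2 arrays were counted as 1 RNA preparation per genotype and no test was possible. The labels name no tissue-specific driver for either deletion.

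Each value is a log2 ratio of DKO over WT, given for the array with DKO in Cy5, then for the array with DKO in Cy3, then as their mean ± SD (n = 2 arrays). The SD holds dye effects and measurement error and was not taken to measure differences between mice. The sources used here do not say whether both arrays used the same extracts. A gene was called higher or lower if its mean ratio reached 2-fold, both arrays gave 1.5-fold or more in that direction, and the genotype with more signal stood well above background in each dye. The ratios were made with an added offset of 50, which shrinks the ratios of dim probes, so the scanner software's own ratios, which have no offset, are given beside the values they move.

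Free fatty acids released by lipolysis are made into acyl-CoA by synthetases, burned in mitochondria and peroxisomes, and turned back into free fatty acids by thioesterases. The family keeps a copy of this reaction in each compartment: Acot1, Acot7, Acot11 and Acot12 are cytosolic, Acot2 and Acot9 are mitochondrial, and Acot3, Acot4, Acot5 and Acot8 are peroxisomal. Acot1 to Acot5 share an alpha/beta-hydrolase fold and lie side by side on chromosome 12, while Acot7 to Acot12 are built on the unrelated hotdog fold and are scattered over the genome. Several of the family, Acot1 above all, are known targets of the lipid-sensing receptor PPARa in mouse liver, and Acot11 was first described as a thioesterase induced in brown fat by cold.

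The RORs bind DNA at the motif AGGTCA, preceded by a stretch rich in A and T. Promoter windows of 300 bases, from 250 before to 50 after the annotated start, were read from a RefSeq table of build GRCm38.p6 for all 10 genes. The windows of Acot1 and Acot4 are shown because these neighbours gave the family's 1 called gene and its 1 disagreement between probes. Both are on the plus strand, Acot1 at chr12:84009252-84009551 and Acot4 at chr12:84038129-84038428, and capitals mark AGGTCA or its reverse complement TGACCT.
Acot1: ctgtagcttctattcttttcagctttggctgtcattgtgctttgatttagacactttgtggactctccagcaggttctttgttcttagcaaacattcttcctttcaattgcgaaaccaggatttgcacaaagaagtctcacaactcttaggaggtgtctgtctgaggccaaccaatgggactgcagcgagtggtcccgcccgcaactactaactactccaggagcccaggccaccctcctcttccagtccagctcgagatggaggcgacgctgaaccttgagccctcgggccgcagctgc
Acot4: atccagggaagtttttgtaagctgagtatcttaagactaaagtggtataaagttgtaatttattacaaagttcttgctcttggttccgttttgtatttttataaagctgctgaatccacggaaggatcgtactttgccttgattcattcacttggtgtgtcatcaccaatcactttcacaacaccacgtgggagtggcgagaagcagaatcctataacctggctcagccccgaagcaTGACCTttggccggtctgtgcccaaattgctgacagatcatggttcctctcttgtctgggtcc
The Acot1 window held no AGGTCA on either strand, and 52.0% of its bases were G or C. The Acot4 window held 1 match on the minus strand, which begins 13 bases before the start. Across the family, 4 of 10 windows held the motif, those of Acot3, Acot4, Acot5 and Acot12, with 2 matches in Acot5, against 16% of 27025 promoter windows. The longer forms named next were sought on both strands as well, and none of the 10 windows held any. The stretch rich in A and T was not scored beyond the leading T of TAGGTCA and TGGGTCA. Of all windows, 2.64% held TAGGTCA and 3.94% held TGGGTCA. The direct repeat AGGTCANAGGTCA, which like the first of these contains the shorter motif, was in 0.0444%. A match of letters is a description of the window, and no binding was measured here.

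Acot1, the cytosolic long-chain thioesterase, was the 1 member called, and it was higher in DKO. Its spot signal, before any correction, was 608 in DKO in Cy5 and 476 in DKO in Cy3, against 198 in WT in Cy3 and 235 in WT in Cy5, over local backgrounds of 57 to 71. The lowest DKO signal thus stood above the highest WT signal whichever dye carried it. After normalisation the log2 signal was 8.86 and 9.13 in DKO, against 7.76 and 7.82 in WT. The log2 ratio was 1.10 with DKO in Cy5 and 1.32 with DKO in Cy3, with a mean of 1.21 ± 0.16, or 2.31-fold. The gap between genotypes was several times the gap between arrays. By the software's ratios it was 1.34 and 1.59, each with an error of 0.19 and 0.20 from the software's model of a single array, and the mean was 1.46 ± 0.18, or 2.76-fold. Acot1 ranked 12th from the top by mean log2 ratio among 14098 measured genes with a symbol.

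Over all 28673 measured genes and transcripts, 29 were called higher in DKO, which is 0.101%, and 7 were called lower, which is 0.0244%. Among the 10 Acot genes, 1 was called higher, 0 were called lower and 9 were not called. The median over the 10 was 0.077, against 0.0020 over all measured genes, and without Acot1 it was 0.066. On both arrays 6 of the 10 lay above 0, against 19.2% of all measured genes, and 1 lay below 0, against 17.9%. Except for Acot1, these means, each from the brightest probe of a gene, lay between -0.30 and 0.23. By these ratios Acot1 lay well apart from the rest. The dimmer of the 2 Acot4 probes, which is not among these means, was at 0.41. By the software's ratios that probe was at 1.08, which met the call rule.

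**Figure D1:**
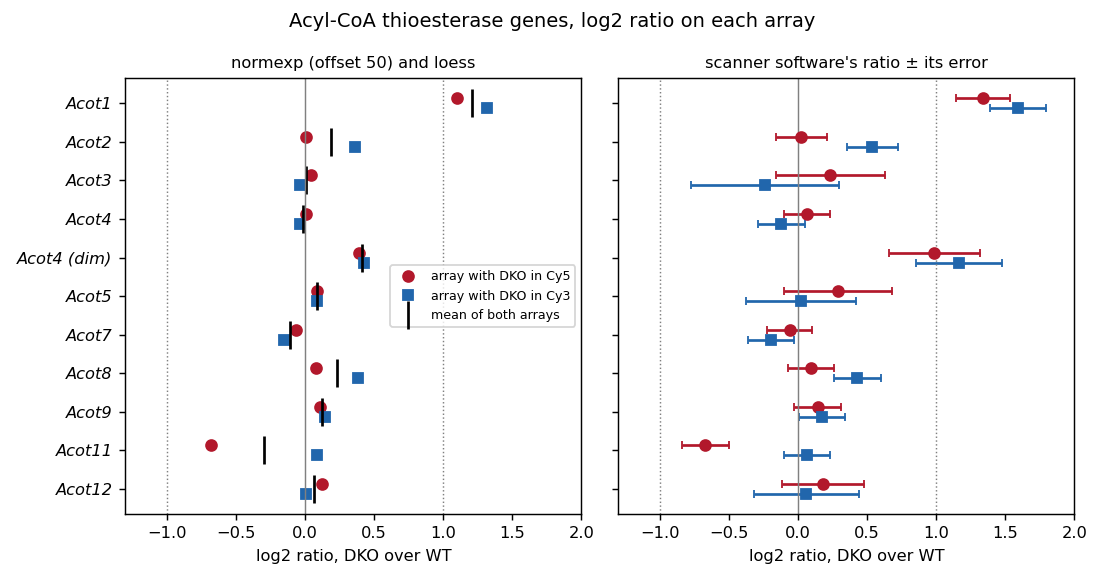
Log2 ratio of DKO over WT (horizontal axis) for each of the 11 Acot probes, with circles for the array that had DKO in Cy5 and squares for its dye reversal. On the left are normexp and loess ratios with the mean as a bar, and on the right the scanner software's ratios with its error for each array as whiskers. Dotted lines mark 2-fold. Acot1 lies at 1.10 and 1.32 on the left, and the dim Acot4 probe moves from 0.39 and 0.43 on the left to 0.99 and 1.16 on the right.

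The neighbours of Acot1 on chromosome 12 had smaller ratios, although 1 of the 2 Acot4 probes passed 2-fold by the software's ratios. Acot2, the mitochondrial matrix enzyme and the gene next to Acot1, had log2 signals of 7.44 and 7.75 in DKO, against 7.44 and 7.39 in WT. The ratio of Acot2 was 0.0062 on the log2 scale with DKO in Cy5 and 0.37 with DKO in Cy3, a mean of 0.19 ± 0.25. After normalisation the genotypes were apart on 1 array only, and the mean was smaller than the SD over arrays. Raw Acot2 signals were the higher in DKO on both arrays, at 220 and 190, against 166 and 167 in WT. The ratio of 0.0062 with DKO in Cy5 thus rests on the dye normalisation. Software ratios gave 0.28 ± 0.36.

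Acot3, a peroxisomal enzyme of long-chain substrates, was dim: its signal was 95.8 and 80.1 in DKO, against 87.0 and 77.9 in WT, or 1.16 to 1.68 times the local background. The log2 ratio was 0.046 and -0.035, a mean of 0.0054 ± 0.057, and the sign of the mean turned under the software's ratios (-0.0039), median signals (-0.0056) and median centring (-0.019). Acot5, also peroxisomal, was as close to background, with signals of 96.3 and 88.4 in DKO, against 87.1 and 83.7 in WT. For Acot5 the log2 ratio was 0.088 and 0.085, a mean of 0.087 ± 0.0017, and by the software 0.15 ± 0.19. For both genes the offset of 50 exceeded the signal above background, and the software put the error of a single array at 0.39 to 0.53 for them.

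The 2 probes of Acot4, in mouse a peroxisomal enzyme of succinyl-CoA and related dicarboxylic acids, disagreed. The brighter one, which stands for the gene here, had signals of 423 and 260 in DKO, against 280 and 333 in WT, and followed the dye rather than the genotype. This probe's log2 ratio was 0.0094 and -0.037, a mean of -0.014 ± 0.033, which median centring turned to 0.096. The dimmer one, named in the file for the clone C730047C17, had signals of 120 and 114 in DKO, against 86.8 and 82.9 in WT. There the DKO signals were the higher in either dye. Its log2 ratio was 0.39 and 0.43, a mean of 0.41 ± 0.026 or 1.33-fold, which is short of a call. By the software it was 0.99 and 1.16, each with an error of 0.33 and 0.31, a mean of 1.08 ± 0.12 or 2.11-fold, which met the call rule that 0.188% of measured probes met in this direction by software ratios. The dim probe exceeded the bright one by 0.42 ± 0.059 on the normexp scale and by 1.10 ± 0.26 on the software's. Which transcripts each probe reads was not tested, since probe sequences were not used here. For the same reason it was not tested how far Acot1 to Acot5, which are close in sequence, share signal.

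**Figure D2:**
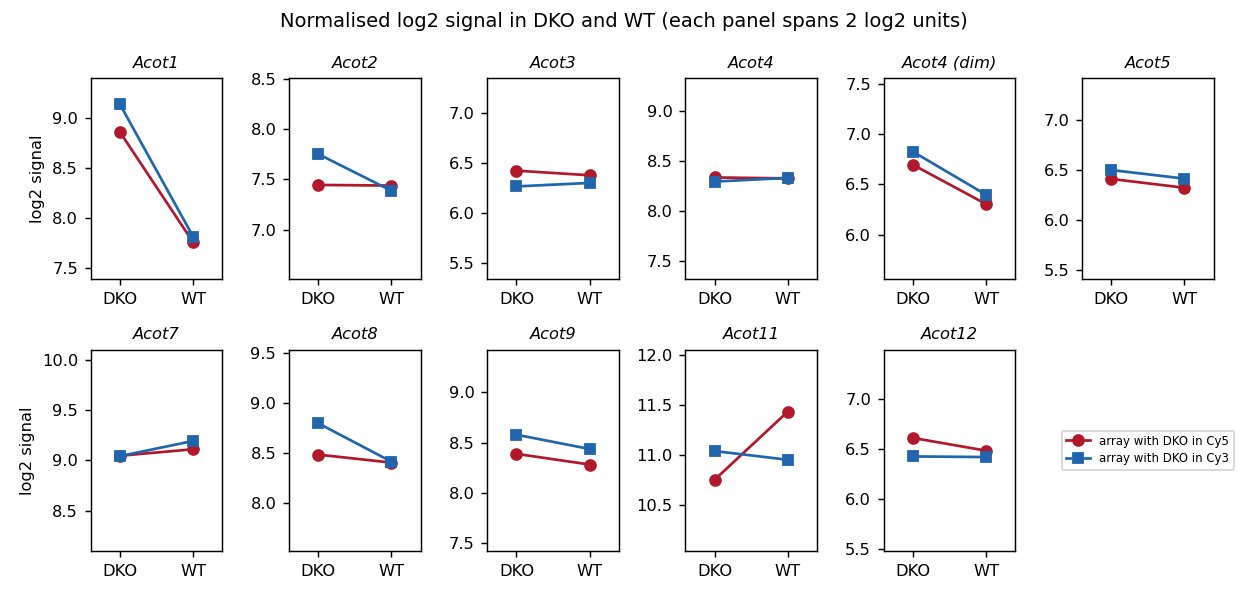
Normalised log2 signal of each Acot probe in DKO (left) and WT (right), with 1 line per array (circles, DKO in Cy5; squares, DKO in Cy3). Each panel spans the same number of log2 units, and levels are not to be compared between panels. In the Acot1 panel both lines drop from DKO (8.86 and 9.13) towards WT (7.76 and 7.82), and in the Acot11 panel the lines run in opposite directions.

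In RefSeq gene order the cluster runs Numb, Heatr4, Riox1, Acot2, Acot1, Acot4, Acot3, Acot5, Acot6. Of the 5 Acot genes measured there, 1 was called higher, 3 lay above 0 on both arrays and 0 lay below on both, with a median of 0.087. Riox1, a histone and ribosomal protein hydroxylase outside the family, was at 0.042 ± 0.099. Numb, an adaptor of Notch signalling, was at 0.027 ± 0.16 and -0.033 ± 0.028 by its 2 measured probes. The probe of Acot6, at 0.027 ± 0.23, was not well above background in DKO or in WT. Heatr4, and Dnal1, Pnma1 and Mideas beyond Acot6, matched no probe used here, so no gene outside the family was measured on that side. By normexp ratios no other measured probe of the cluster reached 2-fold. By the software's ratios the dim Acot4 probe did, at 1.08 ± 0.12, against 1.46 ± 0.18 for Acot1.

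**Figure D3:**
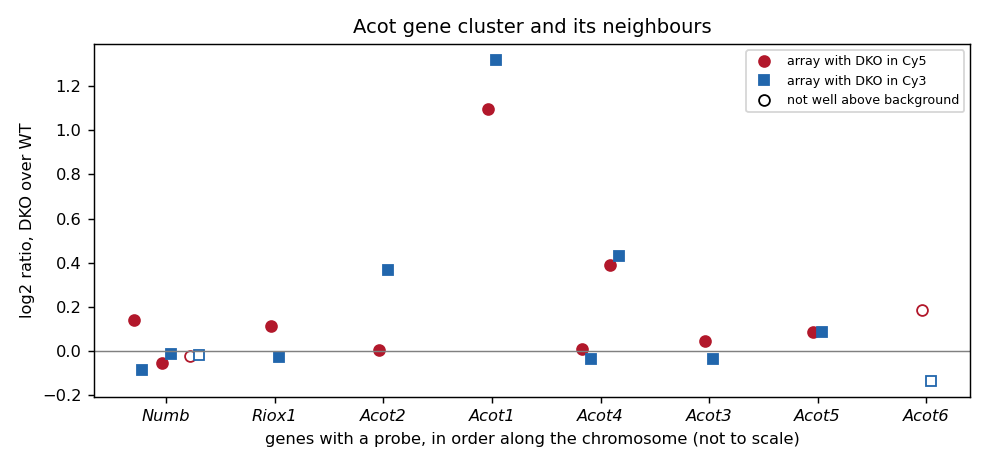
Log2 ratio of DKO over WT on each array for the genes of the chromosome 12 cluster that have a probe, in gene order and not to scale. Circles are the array with DKO in Cy5, squares the array with DKO in Cy3, open marks are probes not well above background, and pairs side by side are different probes of a gene. Acot1 stands at 1.10 and 1.32, and the next highest pair is the dim Acot4 probe at 0.39 and 0.43.

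Acot11, the thioesterase first found in brown fat and linked to a lipid-binding START domain, gave arrays that went opposite ways. Its log2 signal was 10.76 and 11.04 in DKO, against 11.44 and 10.96 in WT. The log2 ratio was -0.68 with DKO in Cy5 and 0.087 with DKO in Cy3, a mean of -0.30 ± 0.54, the widest spread in the family. On this bright spot, with signals of 1882 to 2251 over local backgrounds of 56 to 67, the software gave the same picture (-0.67 and 0.066, errors 0.17 and 0.16). DKO signals were the lower in the raw data on both arrays, at 2185 and 1882, against 2251 and 2233 in WT. The sign on the array with DKO in Cy3 thus rests on the dye normalisation. So does most of the size of -0.68 on the array with DKO in Cy5, where the raw signals were close. Median centring gave a mean of -0.16. No direction can be given for Acot11.

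Acot7, a cytosolic enzyme best known from brain, was the 1 member below 0 on both arrays. Its log2 signal was 9.05 and 9.04 in DKO, against 9.11 and 9.19 in WT. The log2 ratio was -0.065 and -0.15, a mean of -0.11 ± 0.061, which median centring turned to 0.017. Acot12, a cytosolic acetyl-CoA hydrolase known from liver, was dim, with signals of 112 and 88.5 in DKO, against 95.4 and 84.7 in WT. For Acot12 the log2 ratio was 0.13 and 0.0062, a mean of 0.066 ± 0.085. By the software Acot12 was at 0.12 ± 0.086, with errors of a single array of 0.30 and 0.38. Neither cytosolic gene came near the change in Acot1.

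Acot8, the peroxisomal thioesterase of broad specificity that also acts on bile acid CoA esters, had log2 signals of 8.48 and 8.80 in DKO, against 8.40 and 8.41 in WT. Its log2 ratio was 0.080 and 0.38, a mean of 0.23 ± 0.21, so most of the mean came from the array with DKO in Cy3. Acot9, a mitochondrial enzyme, had log2 signals of 8.39 and 8.58 in DKO, against 8.28 and 8.44 in WT. For Acot9 the log2 ratio was 0.11 and 0.14, a mean of 0.12 ± 0.025. By the software Acot9 was at 0.16 ± 0.024, and median centring gave 0.23. Both arrays put DKO above WT for these genes, and the sizes were far short of 2-fold.

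**Figure D4:**
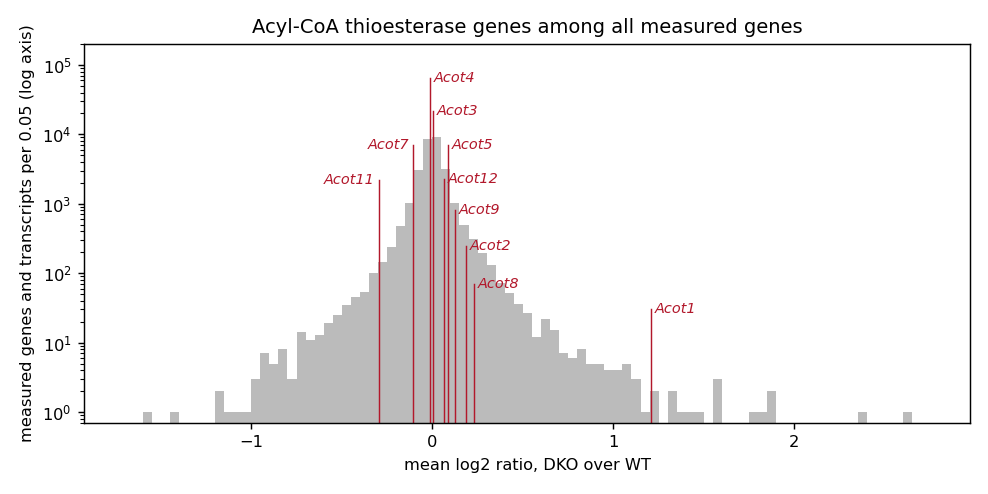
Number of measured genes and transcripts (vertical, log axis) by mean log2 ratio of DKO over WT (horizontal, bins of 0.05), for all 28673, with the 10 Acot genes marked. The height of each marked line carries no value. Acot1 stands far out in the upper tail at 1.21. Of the other members, Acot8 at 0.23 and Acot2 at 0.19 lie on the upper shoulder and Acot11 at -0.30 on the lower, and the rest lie between -0.11 and 0.12.

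The labels were checked against the deleted gene Rora, which was lower in DKO on each array, with a mean of -0.38 ± 0.045 by normexp and -0.96 ± 0.072 by software ratios. A further Rora probe gave -0.47 ± 0.10 and -1.52 ± 0.14 by the software. Both Rora probes were dim, at an average log2 intensity of 6.64 and 6.43, and neither met the call rule by normexp ratios. The sources used here do not say where these probes lie relative to the deleted part. All 10 brown adipocyte markers were measured, among them Ucp1, the uncoupling protein of brown fat, at 0.73 ± 0.0047, and Cidea, a lipid droplet protein whose spot was saturated, at -0.14 ± 0.023. The elongase gene Elovl3 was the 1 called of these 10, at 1.02 ± 0.018, and is named after its value was seen. The median over the brown adipocyte markers was 0.29.

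Skeletal muscle markers moved in the same direction as Acot1. Of 13 listed, 12 were measured. All 12 had a mean above 0, 10 of the 12 were above 0 on both arrays, 0 were called (2 by software ratios), and the median was 0.64, with a range of 0.092 to 0.97. Their summed normalised signal was 19581 and 22087 in DKO, against 13787 and 12567 in WT. The fast troponin genes Tnni2 and Tnnc2, the brightest of the list, were at 0.63 ± 0.25 and 0.61 ± 0.096. The part of these 12 markers in the value of Acot1 was not tested. In whole tissue a change in the number of cells of a type and a change in RNA per cell cannot be told apart. Medians of the other marker lists were -0.020 for white adipocytes, 0.021 for all adipocytes, 0.027 for liver, 0.024 for macrophages, -0.088 for endothelium and 0.0078 for nerve. In the white adipocyte list only 4 of 8 genes were measured, with a range of -1.08 to 0.30. Of these 4, Lep, which encodes leptin, was the 1 called lower, at -1.08 ± 0.42, against 0.0244% of all measured genes. The coregulator gene Nrip1 was at 0.0062 ± 0.18.

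The 5 genes whose pair of ratios lay nearest to those of Acot1 over the 2 arrays were Eno3, Slc27a2, Myom2, Tbc1d20 and Gabarapl1, at Euclidean distances of 0.175 to 0.214 on the log2 scale. Eno3, the enolase of muscle, was at 0.97 and 1.44, a mean of 1.21 ± 0.33. Myom2, which encodes the sarcomere protein myomesin 2, was at 1.03 and 1.13. Slc27a2, a very-long-chain acyl-CoA synthetase and fatty acid transporter, was at 1.02 and 1.16. Tbc1d20, which encodes a GTPase-activating protein for Rab1, was at 1.04 and 1.13, and Gabarapl1, of the autophagy machinery, was at 1.02 and 1.12. All 5 were called higher, and with 2 arrays a near pair of values is shared by any gene of like fold.

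The genes on either side of the thioesterase reaction were set beside the family by lists of pathway members. Of 33 genes for acyl-CoA synthetases and the supply of coenzyme A, 26 were measured, and their median was 0.024. In that list Slc27a2 was called higher at 1.09 ± 0.10, and Acss2, the cytosolic synthetase that makes acetyl-CoA from acetate, was called lower at -1.19 ± 0.28. The remaining 24 were not called. Both called genes make acyl-CoA, and they went opposite ways.

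Mitochondrial beta-oxidation and the carnitine shuttle had 21 of 22 genes measured, and 0 were called in either direction. On both arrays 10 of them were above 0 and 2 below, with a median of 0.20. That median was 0.032 with DKO in Cy5 and 0.27 with DKO in Cy3, so it came mostly from 1 array. Acadvl, the very-long-chain acyl-CoA dehydrogenase, was at 0.24 ± 0.22, and Acaa2, the last thiolase step, was at -0.019 ± 0.044. Peroxisomal beta-oxidation had 23 of 23 genes measured, 0 called, and a median of 0.0083. On both arrays 5 of them were above 0 and 4 below. There Phyh, of alpha-oxidation, was at 0.048 ± 0.18. Ehhadh, the bifunctional enzyme of the pathway, is named after its value was seen. It was at 0.84 and 1.08, a mean of 0.96 ± 0.16, just short of a call, and the software's ratios gave 1.31 ± 0.28, which met the call rule. By software ratios 0.185% of all measured genes were called higher and 0.0977% lower.

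A list of lipid genes known to respond to PPARs also held genes of the receptors themselves and of their coactivator, Ppargc1a. Of this list 29 of 30 were measured, with a median of 0.011, 11 above 0 and 7 below on both arrays. Ppara and Ppargc1a are counted among those above 0, and Pparg among those below. Pdk4, the kinase that shuts down pyruvate dehydrogenase, was the 1 called, higher in DKO at 1.34 ± 0.11. The median of this list was 0.014 with DKO in Cy5 and 0.22 with DKO in Cy3, so it too differed between the arrays. Ehhadh, also in this list, was called with Pdk4 by the software's ratios. Fabp3, a fatty acid-binding protein, at 0.84 ± 0.14, and Lpl, the lipase that frees fatty acids from lipoproteins, at 0.62 ± 0.15, lay above 0 on both arrays without a call, and are named after their values were seen. Of 17 other genes for thioesterases, 12 were measured and 0 were called, with a median of -0.0029. The brightest of them were Acot13, a small hotdog-fold thioesterase, at 0.0054 ± 0.037, and Fasn, fatty acid synthase with its own thioesterase domain, at -0.34 ± 0.48 with saturated spots.

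**Figure D5:**
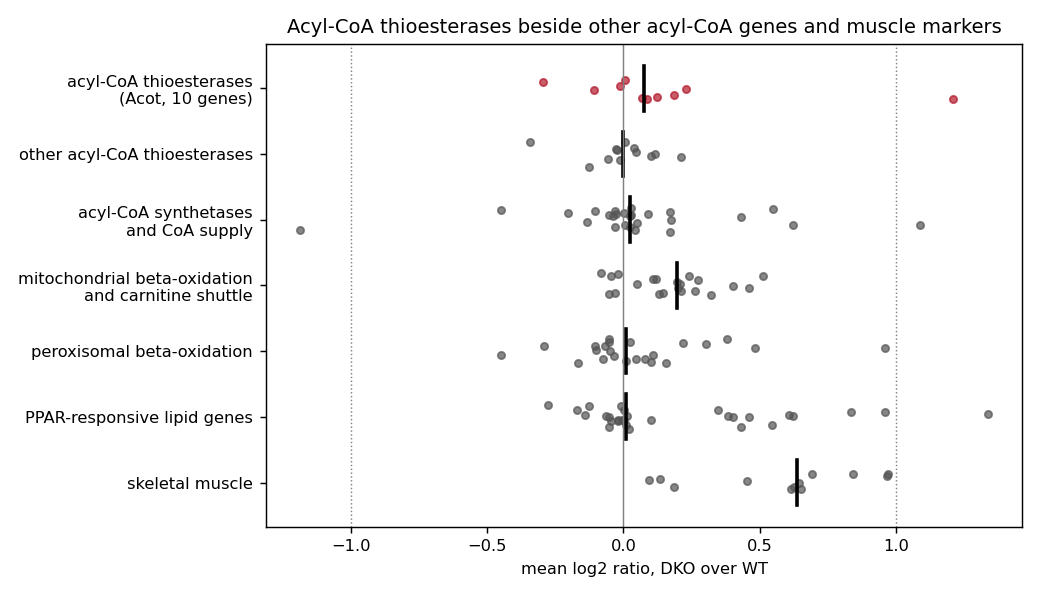
Mean log2 ratio of DKO over WT (horizontal axis) for each measured gene, as points, and the median of each list, as bars, with dotted lines at 2-fold. The 10 Acot genes have a median of 0.077 and 1 gene beyond 2-fold, and skeletal muscle markers a median of 0.64 with none beyond 2-fold. The list drawn as other acyl-CoA thioesterases has a median of -0.0029. It also holds thioesterases of other substrates, such as the palmitoyl-protein thioesterase Ppt1.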

How the data were processed

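The authors read the scanned whole mouse genome arrays with Agilent Feature Extraction 7.5 and its default parameters, per the labels. The deposited spot files give, per the file headers, the linear intensity of each spot (mean, median and local background). They also hold the software's log10 ratios of red over green, each with an error, and a p-value of each ratio from its error model, deposited beside them. The deposited series table gives log2 values. They equalled the spot files' red over green within 0.001 for 40962 of 41001 and 41101 of 41141 entries, and each column's median was 0. Per the labels, Rosetta Resolver was used afterwards, with steps that the sources used here do not state.

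Mean signals were corrected with normexp (offset 50) against median local background and loess-normalised array by array, giving control spots a weight of 0 (limma 3.58.1, R 4.3.3). Outlier spots were left out (171 and 29), spots of a probe were averaged, and the sign was turned where DKO was in Cy3. Log2 signals per genotype were read after quantile normalisation of average intensity between arrays (Aquantile). From 77.6% to 85.4% of the 41534 probe spots per channel were well above background, over median signals of 107 to 130, and the number of arrays limits the precision. Each gene was represented by its brightest measured probe, where measured means well above background in DKO, or in WT, in both dyes. Of 40979 probes, 20161 had no match in the RefSeq gene table (GRCm38.p6, used for names and order) and kept the file's name. The steps were run on simulated arrays with known changes. These were placed on brighter probes and were larger than the change in Acot1, so changes in dim probes were not covered.

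Named were all Acot genes, Rora, called members of each pathway list (otherwise its 2 brightest genes) and the 5 genes nearest to Acot1. The 2 brightest genes were also named for the brown adipocyte, white adipocyte and skeletal muscle marker lists. The other marker lists are given by their medians only, without their brightest genes. Members and lists were chosen with earlier results of these data known. The second targeted gene and 1 gene named by this rule are not reported here. The alternatives tried were another offset, ratios from the software or the series table, median signals, median centring, other filters, probe rules and thresholds, the error model, and single arrays. Tables and figures were made with pandas 2.3.3, numpy 2.4.6 and matplotlib 3.10.9 (Python 3.11.15).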

Additional observations from a re-analysis of the deposited data

How the results depend on the processing

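The count of 1 Acot gene called higher held under every alternative run except a 3-fold threshold, which left 0, and the count of 0 called lower held under all of them. By software ratios the dimmer Acot4 probe also met the call rule, but that count takes Acot4 from its brighter probe. Acot1 ranged from 1.10 to 1.46 over its alternatives. Of 100 values of single Acot genes under alternatives, 86 moved by less than the SD over arrays and 14 by more, and no called gene changed sign. Many of the 86 could not have moved further. A value from a single array always lies within the SD of the mean, and the filters kept every Acot probe. The rule of the median over probes could change Acot4 only, and the series table repeats the software's ratios. Neither count therefore measures robustness. The median of the 10 genes was 0.12 with an offset of 16, 0.14 with the software's ratios, 0.14 with the series table and 0.11 with the median over a gene's probes, and it was 0.063 to 0.086 on single arrays. Rora was -0.96 by software ratios.

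Over all genes, 53 were called higher and 28 lower by the software's ratios, 53 and 28 by the series table, 102 and 79 at a 1.5-fold mean, 7 and 0 at 3-fold, and 142 and 122 by the software's error model. With an offset of 16, 13 were called lower. On single arrays 32 to 55 were called higher and 9 to 38 lower. The cause of these shifts was not tested, beyond the thresholds' own construction and the offset's shrinkage of dim probes. Median centring moved the median of all genes by 0.042. Each ratio sets both genotypes of an array side by side. No paired test was possible because the arrays were counted as dye reversals of 1 RNA preparation, in the absence of a label that tells. Ratios of Acot3, Acot5, Acot12 and the dim Acot4 probe are limited by signals at most 2.00 times background.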

Other observations

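Of the other thioesterase probes that were not matched to the 10 genes, those given here showed no call. Acot10, an intronless relative of Acot9 in mouse, was at -0.013 and 0.44 on the arrays, a mean of 0.21 ± 0.32. A dim probe described in the file as a brown fat inducible thioesterase, and matched to no gene symbol, was at 0.0023 ± 0.073. Whether it reads Acot11, first described under a like name, was not tested. A pair of further unmatched thioesterase probes were at 0.056 ± 0.047 and 0.048 ± 0.10.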
